A study of Mus musculus with 109 samples.

Results

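The rod phototransduction genes are 9 genes, Gnat1, Gngt1, Pde6a, Pde6b, Cnga1, Sag, Rcvrn, Nrl and Nr2e3, which were taken by symbol and Ensembl identifier from a table of 37315 genes. All 9 passed the low-count filter in every comparison. Each library held polyA RNA of 1 whole mouse retina, so a level is a mean over all retinal cell types. The retinas came from 64 mice, aged 2 to 4 months by the design text and over a wider range by the study's methods, and both eyes of 45 of these mice were sequenced. Eyes had been injected into the vitreous with the inflammatory cytokine IL1A, the inflammatory cytokine TNF, both together (IL1A+TNF) or the vehicle PBS, and in most mice the PBS retina was the fellow eye of a cytokine-injected one. In batch 1 all mice were wild type (WT, C57BL/6J), with 31 PBS, 8 TNF, 9 IL1A and 10 IL1A+TNF retinas at day 2, 7 PBS and 6 TNF retinas at day 14, and 6 PBS and 9 TNF retinas at day 35. Batch 2 was taken at day 2 and held 5 PBS and 6 IL1A+TNF retinas of WT mice, and 6 PBS and 6 IL1A+TNF retinas of mice deficient in Sarm1 (Sarm1KO), an NAD-cleaving enzyme of axon degeneration. Both sexes were present in each group, and the batches are those given in the labels.

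Rods are the photoreceptors of dim light and the most abundant cells of the mouse retina. Light absorbed in the outer segment switches on the G protein transducin (α subunit Gnat1, γ subunit Gngt1), and transducin releases the cGMP phosphodiesterase (catalytic subunits Pde6a and Pde6b) from inhibition. The fall in cGMP closes the cation channel that Cnga1 forms with Cngb1, while arrestin (Sag) and the calcium sensor recoverin (Rcvrn) act in shutting the response off and setting its length. Nrl and Nr2e3 are transcription factors of rod identity: Nrl acts with Crx on rod genes, and Nr2e3 represses cone genes in rods.

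The 250 bases before a RefSeq transcription start were searched in 6 members for short motifs of the photoreceptor factors. They are shown for the 4 members that held one. The 9 genes are known as targets of shared regulators. The sequences are those of RefSeq on GRCm38.p6 and were taken for 6 of the 9 members. Gnat1, Rcvrn and Pde6a were not searched, so whether they hold these motifs is not known here. Capitals mark TAATCC, a core recognised by Crx, or TGCTGA, a half-site of the kind bound by Nrl, each searched on both strands (on the other strand the Crx core reads GGATTA).
Sag, chr1:87803430-87803679, plus strand: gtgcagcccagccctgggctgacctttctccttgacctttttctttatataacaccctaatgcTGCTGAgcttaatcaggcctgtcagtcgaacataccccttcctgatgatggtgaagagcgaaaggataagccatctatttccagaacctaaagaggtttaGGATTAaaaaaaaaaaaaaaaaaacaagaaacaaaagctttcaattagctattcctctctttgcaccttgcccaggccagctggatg
Pde6b, chr5:108388123-108388372, plus strand: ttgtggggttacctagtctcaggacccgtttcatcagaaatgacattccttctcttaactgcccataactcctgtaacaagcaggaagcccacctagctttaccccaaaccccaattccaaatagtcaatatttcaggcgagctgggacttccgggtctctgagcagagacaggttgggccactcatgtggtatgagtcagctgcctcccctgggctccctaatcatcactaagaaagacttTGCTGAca
Gngt1, chr6:3993758-3994007, plus strand: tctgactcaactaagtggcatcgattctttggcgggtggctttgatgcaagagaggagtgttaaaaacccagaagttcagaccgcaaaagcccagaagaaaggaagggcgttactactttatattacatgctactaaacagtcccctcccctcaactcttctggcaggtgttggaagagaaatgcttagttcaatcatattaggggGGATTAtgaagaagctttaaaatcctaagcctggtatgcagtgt
Cnga1, chr5:72642753-72643002, minus strand: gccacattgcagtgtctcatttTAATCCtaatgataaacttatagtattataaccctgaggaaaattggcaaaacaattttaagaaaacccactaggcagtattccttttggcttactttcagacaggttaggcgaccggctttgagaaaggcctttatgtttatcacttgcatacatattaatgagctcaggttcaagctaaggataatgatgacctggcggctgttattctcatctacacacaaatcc
Counted back from the RefSeq start, the capitals begin at -87 (Crx core, other strand) and -187 (Nrl half-site) in Sag. They begin at -8 (Nrl half-site) in Pde6b, at -44 (Crx core, other strand) in Gngt1 and at -228 (Crx core) in Cnga1. These starts differ from the gene starts given below for some members. The windows of Cnga1, Nrl and Nr2e3 lie wholly and that of Gngt1 partly inside the gene span. The Crx cores of Cnga1 and Gngt1 lie inside it too. The windows of Nrl and Nr2e3 held neither set of letters. Over 32817 windows of 250 bases before RefSeq starts, 6.25% held the Crx core, 16.1% the Nrl half-site and 0.96% both, as the Sag window did. The matches describe letters only, since no binding was measured here, and their bearing on the levels of these genes was not tested.

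Total counts were 30014757 to 79064488 per retina, and the smallest count of any member in any retina was 8290, for Nr2e3, so counting error was small beside the spread between retinas. Sarm1 itself was at 26.0 to 52.9 CPM (counts relative to a library of 1000000, scaled by TMM factors) in the 12 Sarm1KO retinas and at 76.2 to 138 CPM in the 97 WT retinas, lower without overlap but not at 0. The IL1A+TNF retinas of Sarm1KO mice 61924 and 61926 stood apart from the rest in neuronal markers, with retinal ganglion cell (RGC) markers summing to 112 and 94.8 CPM and bipolar cell markers to 318 and 304 CPM, where the other 4 retinas of their group had 312 to 728 and 1095 to 1472 CPM. Results that rest on these 2 retinas are given with and without them. Mice are separate animals, while the eyes of 1 mouse share it, and mouse was kept as a block except in the fit of PBS retinas across days, where mouse 59710 gave both of its eyes at day 14.

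In the 31 PBS retinas of day 2, the members differed widely in level. Per kilobase of the principal transcript, Gnat1 stood at 3791 ± 398 CPM per kb (mean ± SD, n = 31) and Sag at 2390 ± 351 CPM per kb, and the ranges of these 2 genes overlapped. A middle set followed, with Pde6b at 726 ± 72.1, Pde6a at 643 ± 58.1, Rcvrn at 636 ± 83.8 and Gngt1 at 625 ± 104 CPM per kb, and from Pde6a to Gngt1 neighbours lay closer than their SDs. The lowest were Nrl at 389 ± 47.8, Cnga1 at 277 ± 32.1 and Nr2e3 at 184 ± 18.4 CPM per kb. Counts were summed by gene, and for Sag the exons of all transcripts covered 8904 bases beside 1719 in the principal transcript. The order of the genes thus depends on the length used. Together the 9 genes took 1.82% to 2.57% of all counts in these retinas, with a median of 2.12%. Rod genes were thus abundant in tissue labelled as retina.

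IL1A+TNF was compared with PBS at day 2 to describe the retina at the time when both cytokines had acted together. Of the 9 genes, 8 were lower after IL1A+TNF (FDR under 0.05 in limma, Benjamini-Hochberg over 19548 genes) and Sag did not pass the test, where 25.5% of all genes tested were called lower. The falls ran from 23.3% for Nr2e3 to 44.3% for Nrl, and the median log2 fold change of the 9 was -0.59, beside -0.02 over all genes tested. Lower genes made up 50.5% of all calls, or 32.7% when libraries were scaled by their totals alone, and the 8 members stayed lower under both scalings. Levels in CPM are given below by role, as the lowest, median and highest retina.

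Among the transducin subunits, Gnat1 (ENSMUSG00000034837, chr9:107674474-107679712, minus strand, GRCm38) ranged from 6844 to 10681.5 CPM in the PBS retinas with a median of 8908, and from 4128 to 8407 CPM after IL1A+TNF with a median of 4780.3. Of the 10 IL1A+TNF retinas, 9 lay below the lowest PBS retina and the remaining one, mouse 60780, lay within the PBS range. The level fell by 41.4% (log2 fold change -0.77, SE 0.0747, 95% interval -0.92 to -0.62, limma FDR 3.74e-13). Gngt1 (ENSMUSG00000029663, chr6:3993792-3997436, plus strand), the small farnesylated partner that helps to hold transducin at the membrane, had a lowest, median and highest level of 561, 711 and 1052 CPM after PBS and 337, 426 and 684 CPM after IL1A+TNF. Here 8 of 10 treated retinas lay below every PBS retina, and Gngt1 fell by 37.4% (log2 fold change -0.68, SE 0.0877, FDR 2.51e-09).

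The catalytic phosphodiesterase subunits fell by different amounts. Pde6a ranged from 2363 to 3338 CPM after PBS (median 3010.0) and from 1912 to 2623 CPM after IL1A+TNF (median 2209.7), a log2 fold change of -0.41 (SE 0.0480, limma FDR 1.76e-10). Pde6b (ENSMUSG00000029491, chr5:108388391-108432397, plus strand) ranged from 1663 to 2475 CPM after PBS (median 2013) and from 1146 to 1921 CPM after IL1A+TNF (median 1273), a log2 fold change of -0.59 (SE 0.0580, FDR 5.78e-13). For Pde6a 8 and for Pde6b 9 of the 10 treated retinas lay below the lowest PBS retina. The 95% intervals of the changes were -0.50 to -0.31 for Pde6a and -0.71 to -0.48 for Pde6b, and the difference between the 2 genes was not tested. Cnga1 (ENSMUSG00000067220, chr5:72603696-72644275, minus strand), the channel subunit that binds cGMP, went from 608, 747 and 1011 CPM (lowest, median, highest) after PBS to 470.0, 562 and 744 CPM after IL1A+TNF. Again 8 of 10 treated retinas lay below all PBS retinas, and the log2 fold change was -0.39 (SE 0.0588, FDR 8.96e-08).

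The shut-off and calcium genes parted. Sag (ENSMUSG00000056055, chr1:87803680-87845158, plus strand) ranged from 2939 to 5742 CPM after PBS with a median of 4167, and from 3161 to 4857 CPM after IL1A+TNF with a median of 3791. All 10 treated retinas lay inside the PBS range, 7 of them below its median. The log2 fold change was -0.09 (SE 0.0718, 95% interval -0.23 to 0.06, limma FDR 0.331). Rcvrn (ENSMUSG00000020907, chr11:67695326-67703333, plus strand), which binds calcium, went from 493, 670 and 809 CPM (lowest, median, highest) to 335, 383 and 628 CPM. In 8 of 10 treated retinas it was below every PBS retina, with a log2 fold change of -0.66 (SE 0.0749, FDR 5.76e-11). The ratio of Gnat1 to Sag within a retina, which does not depend on library scaling, had a median of 2.10 after PBS (range 1.68 to 3.30) and 1.33 after IL1A+TNF (1.06 to 1.76), so the 2 genes changed unequally.

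Of the transcription factors, Nrl (ENSMUSG00000040632, chr14:55518978-55524981, minus strand) ranged from 740.5 to 1227 CPM after PBS (median 976) and from 424 to 840.1 CPM after IL1A+TNF (median 499). The retina of mouse 60780 was the only treated one inside the PBS range. Nrl had the largest fall of the 9, with a log2 fold change of -0.85 (SE 0.0711, 95% interval -0.99 to -0.70, limma FDR 3.77e-15). Nr2e3 (ENSMUSG00000032292, chr9:59942771-59960659, minus strand) went from 311, 375 and 508 CPM (lowest, median, highest) to 191, 288.5 and 413 CPM, with 7 of 10 treated retinas below every PBS retina and 2 above the PBS median. Its log2 fold change was -0.38 (SE 0.0635, FDR 8.56e-07).

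**Figure D1:**
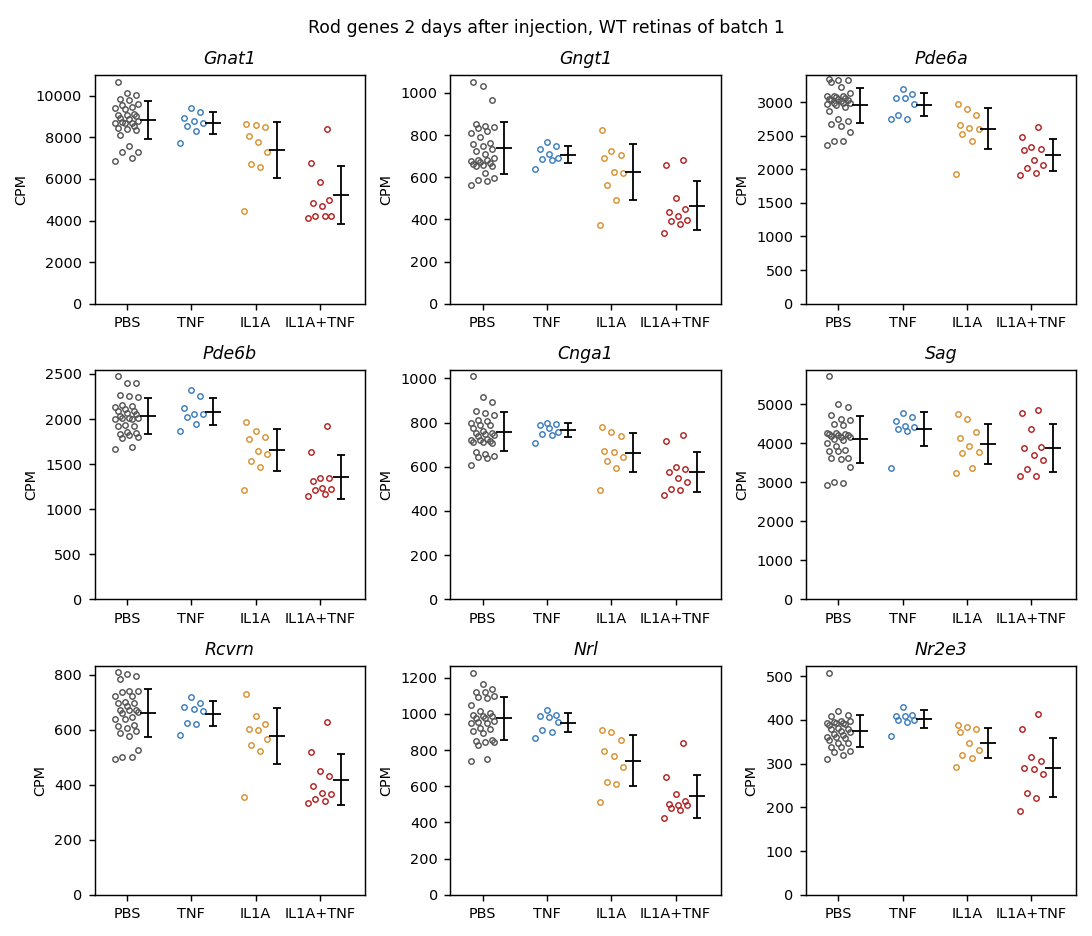
Levels of the 9 rod genes in CPM (vertical axis, from 0) in each WT retina of batch 1 at day 2, by treatment (31 PBS, 8 TNF, 9 IL1A and 10 IL1A+TNF retinas). Circles are retinas, and the black bar beside them gives the mean ± SD: the IL1A+TNF circles sit mostly below the PBS circles in 8 panels and among them in the Sag panel, and 1 or 2 IL1A+TNF retinas remain high.

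No member separated the groups fully, as 0 of 9 had every IL1A+TNF retina below every PBS retina, against 0.389% of all genes. Mouse 60780 supplied the highest IL1A+TNF retina for 7 members and mouse 60215 for Sag and Nr2e3, and the retina of mouse 60780 also had the highest cone marker sum (1050 CPM) and the lowest myeloid marker sum (369 CPM) of the 10. Within the 8 mice that had 1 PBS and 1 IL1A+TNF eye, 7 members were lower in the treated eye of 8 of 8 mice and Nr2e3 in 7, while Sag was lower in 3 of 8. The within-mouse log2 difference of Gnat1 ran from -1.11 to -0.19 (median -0.70), that of Nrl from -1.11 to -0.18 (median -0.73) and that of Sag from -0.35 to 0.21 (median 0.06). The calls of the 8 genes held in edgeR and DESeq2 and with any single IL1A+TNF mouse left out. Reads of Pde6a, Cnga1, Rcvrn and Nr2e3 may be mixed with those of genes whose spans overlap theirs. Overlap was taken from whole gene spans, and shared exon bases were not sought. Gm5297 and Gm15507 lie on the strand of Cnga1 and Nr2e3, while Rps2-ps10, Glp2r and Gm7616 lie opposite to Pde6a, Rcvrn and Nr2e3, and the strand setting of the counting was not given.

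The rest of the rod pathway was described by 36 further genes in 5 lists. Of these, 29 were lower and 4 higher after IL1A+TNF, with a median log2 fold change of -0.43. By role, 4 of 5 genes of the G protein and effector, 6 of 6 of the channel and calcium feedback, 10 of 13 of the outer segment and retinoid cycle and 4 of 7 transcription factors were lower. Among the genes with the smallest FDR were Mef2c (-0.84), a transcription factor of photoreceptors among other cells, Rgs9bp (-0.92), the anchor of the transducin-deactivating complex, Esrrb (-0.88), a nuclear receptor of rods, Gnb1 (-0.91), the transducin β subunit, and Cngb1 (-0.54), the partner of Cnga1, as log2 fold changes with limma FDRs from 3.27e-16 to 5.87e-14. The 4 higher ones, looked up after their values were seen, were Impg2 (0.89), of the matrix around photoreceptors, Neurod1 (0.40), a neuronal transcription factor, Prom1 (0.12), of outer segment discs, and Aipl1 (0.11), a chaperone of the phosphodiesterase. The list was thus lower in most but not all of its genes.

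Markers of other retinal cells moved in the same retinas. Cone markers were lower in 11 of 11, led by Arr3, cone arrestin (log2 fold change -2.33), and Opn1sw, the short-wave cone pigment (-1.98), and their sum was 944 to 1351 CPM after PBS and 342 to 1050 CPM after IL1A+TNF. Bipolar cell markers were lower in 8 and higher in 1 of 10 (sums 1088 to 1691 and 847 to 1435 CPM), RGC markers lower in 8 of 9 (616 to 880 and 555 to 707 CPM), and Mueller glia markers lower in 3 and higher in 3 of 8 (2606 to 4840 and 1766 to 4106 CPM). Pigment epithelium markers, of a layer that may come along in dissection, were lower in 8 of 10 (45.9 to 761 and 16.2 to 229 CPM). Whether this came from the dissection or from the cytokines was not tested. Myeloid markers were higher in 8 of 8, with Ptprc, a pan-leukocyte phosphatase, at 2.73 and Cd68, a lysosomal protein of macrophages, at 2.06, and their sum rose from 50.6 to 202 CPM to 369 to 941 CPM. No marker of these lists was at 0 in all retinas, and Ccr2, a chemokine receptor of monocytes, was at 0 in 5 retinas. The part of these shifts in the rod gene levels was not tested, and in bulk RNA fewer rods and less of a transcript per rod cannot be told apart.

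**Figure D2:**
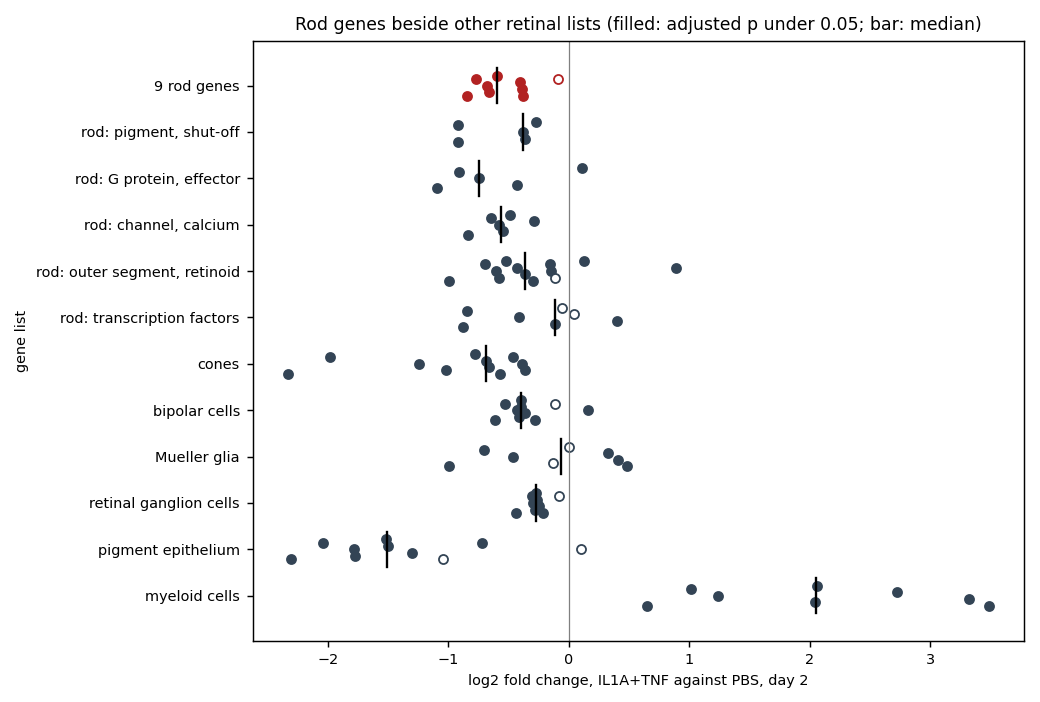
log2 fold change of IL1A+TNF against PBS at day 2 (horizontal axis) for the 9 rod genes, the 5 lists of other rod pathway genes and 6 lists of other retinal cells, with 1 circle per gene, filled where the FDR was under 0.05, and a bar at the list's median. The 9 rod genes have a median of -0.59, the cone list reaches -2.33, and all 8 myeloid genes lie above 0.

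IL1A alone was compared with the same 31 PBS retinas, which the IL1A, TNF and IL1A+TNF comparisons therefore share. After IL1A, 7 of 9 members were lower (limma, FDR under 0.05), beside 9.45% of all genes, and lower genes were 44.0% of all calls or 25.5% with library totals alone. Gnat1 had a lowest, median and highest level of 4450, 7770 and 8659 CPM, with 9 of 9 retinas below the PBS median and 3 below the lowest PBS retina, and a log2 fold change of -0.27 (SE 0.0786, FDR 0.00810). For Nrl, the levels were 512, 766 and 911 CPM, with 4 of 9 retinas below every PBS retina and the largest change of the 9 at -0.41 (SE 0.0746, FDR 2.52e-05). Pde6b stood at 1215, 1649 and 1966 CPM, with 5 of 9 retinas below every PBS retina and a change of -0.30 (SE 0.0606, FDR 0.000146). All 9 IL1A retinas lay below the PBS median for these 3 genes and for Pde6a, and 8 of 9 did for Rcvrn.

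The smaller log2 changes after IL1A were -0.26 for Gngt1 (374, 624 and 823 CPM, FDR 0.0372), -0.21 for Rcvrn (355, 600.1 and 730 CPM, FDR 0.0457), -0.19 for Cnga1 (496, 665 and 781 CPM, FDR 0.0188) and -0.18 for Pde6a (1934.5, 2614 and 2965 CPM, FDR 0.00503), each in limma and after the lowest, median and highest retina. Sag at 3249, 3924 and 4767 CPM (-0.03, 95% interval -0.18 to 0.12, FDR 0.853) and Nr2e3 at 292, 348 and 388 CPM (-0.10, -0.24 to 0.03, FDR 0.299) did not pass. Mouse 60637 gave the lowest IL1A retina for 7 of the 9 genes. Without both eyes of this mouse, only Pde6b and Nrl remained called, and with mouse as a fixed factor over the 7 mice with both eyes only Nrl did (FDR 0.0410), although 6 of 7 treated eyes were lower for Gnat1, Gngt1, Pde6a, Pde6b, Rcvrn and Nrl. Counts by edgeR and DESeq2 were 5 and 6 members. Myeloid markers summed to 146 to 510 CPM in these retinas and were higher in 8 of 8, and cone markers were lower in 8 of 11.

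The IL1A+TNF retinas were also set against those given a single cytokine. Against IL1A, 7 of 9 members were lower (limma, FDR under 0.05), beside 4.68% of all genes, with Gnat1 at a log2 fold change of -0.50 (SE 0.0956, FDR 0.000323), Rcvrn at -0.45 (FDR 0.00109), Nrl at -0.44 (FDR 0.000798), Gngt1 at -0.42 (FDR 0.00994), Pde6b at -0.30 (FDR 0.00563), Nr2e3 at -0.28 (FDR 0.0183) and Pde6a at -0.23 (FDR 0.0118). Cnga1 at -0.20 (FDR 0.0704) and Sag at -0.06 (FDR 0.753) did not pass. Against TNF, 8 of 9 were lower, beside 19% of all genes, from -0.81 for Nrl (FDR 1.46e-09) to -0.41 for Cnga1 (FDR 2.29e-05), and Sag was at -0.18 (95% interval -0.37 to 0.01, FDR 0.121). In these comparisons lower genes were 46.4% and 48.8% of all calls, or 28.8% and 28.4% with library totals alone. The members were thus lower with both cytokines than with either one, except for Sag in both and Cnga1 against IL1A. In the same comparisons cone markers were lower in 10 of 11 against IL1A and 11 of 11 against TNF, bipolar cell markers in 5 and 9 of 10 and RGC markers in 1 and 5 of 9, and myeloid markers were higher in 1 and 6 of 8, and their part was not tested.

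After TNF alone at day 2, 0 of 9 members were called in limma, 0 had an unadjusted p under 0.05, and 0 were called in edgeR or DESeq2, where 0.655% of all genes (128) were called and 1497 had an unadjusted p under 0.05. Gnat1 ranged from 7707 to 9417 CPM with a median of 8717, Nrl from 865 to 1024 CPM with a median of 968, and Sag from 3370 to 4777 CPM with a median of 4441. None of the 8 TNF retinas lay below the lowest PBS retina for any member. Within the 8 mice with a TNF and a PBS eye, Nrl was lower in the TNF eye of 7 (median log2 difference -0.16), Gngt1 of 7 (-0.07), Gnat1 of 6 (-0.13) and Sag of 2 (0.12). The log2 fold changes of the 9 lay between -0.05 and 0.10, and their 95% intervals reached from -0.25 to 0.25 at the widest, so changes of the size seen after IL1A+TNF in 8 genes lay outside them. Of the 36 other rod pathway genes 0 were called in limma, and 3 of 8 myeloid markers were higher (sum 39.1 to 440 CPM). Sexes were compared over the same 58 retinas, with treatment in the model. For female against male, limma, edgeR and DESeq2 each called 0 of 9 members, and 0 had an unadjusted limma p under 0.05, beside 0.363% of all genes, with log2 differences of -0.09 to 0.02.

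**Figure D3:**
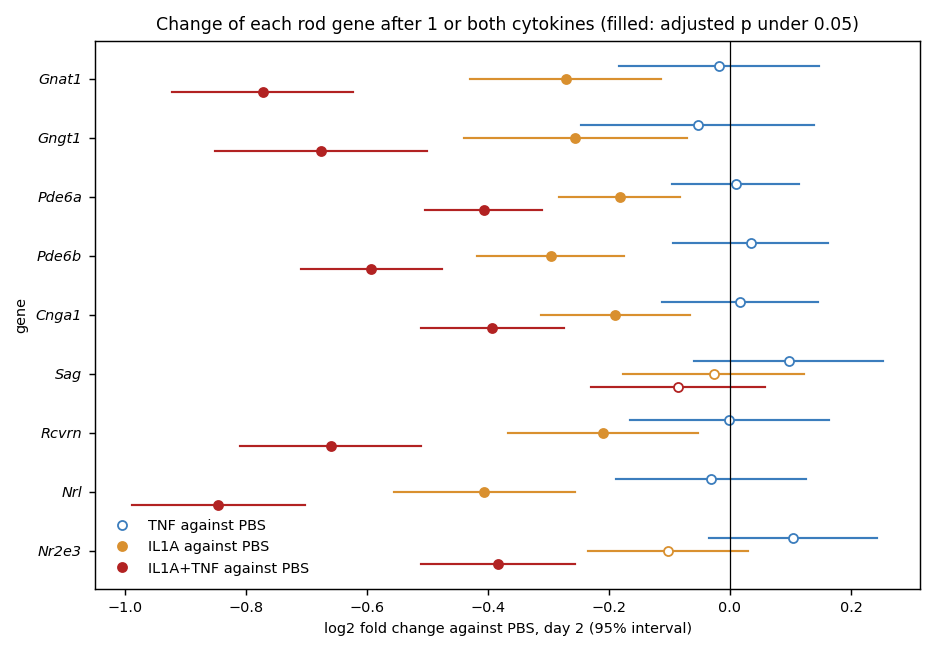
log2 fold change of each rod gene against PBS at day 2 (horizontal axis) with its 95% interval, for TNF, IL1A and IL1A+TNF, where a filled circle has an FDR under 0.05. The TNF circles sit near 0, the IL1A circles reach -0.41 at Nrl and the IL1A+TNF circles reach -0.85 at Nrl, while Sag has 3 open circles.

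TNF was followed to days 14 and 35. Of the 9 members, 0 were called in limma at day 14 (0% of all genes, 838 at an unadjusted p under 0.05) and 0 at day 35 (0% of all genes, 871 at an unadjusted p under 0.05), with 0 members in edgeR and DESeq2 at either day. At day 14 Gnat1 ranged from 9076 to 10617 CPM after TNF (median 9529) and from 8866 to 11150.3 CPM after PBS (median 10072). At day 35 the same gene ranged from 9347 to 11153 CPM after TNF (median 10457) and from 9853 to 12279 CPM after PBS (median 10804). The groups overlapped at both days. Nrl was the only member with an unadjusted limma p under 0.05, at a log2 fold change of -0.09 on day 14 (1079.8, 1132 and 1279 CPM after TNF against 1188, 1236 and 1299.6 CPM after PBS, FDR 0.888) and of -0.09 on day 35 (1201, 1328 and 1397 CPM against 1233, 1421 and 1549 CPM, FDR 0.889). It was lower in the TNF eye of 4 of 4 mice at day 14 and 5 of 6 mice at day 35, and it did not pass the correction. These pair counts were not particular to Nrl. Gnat1, Sag, Rcvrn and Nr2e3 were also lower in 4 of 4 mice at day 14, and Gnat1 and Pde6b in 5 of 6 at day 35. The widest 95% interval of any member was -0.19 to 0.06 at day 14 and -0.17 to 0.10 at day 35, both of Gngt1.

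The PBS retinas themselves differed between days. Over days 2, 14 and 35, 8 of 9 members varied (limma F test, FDR under 0.05), beside 36.2% of all genes, with FDRs from 2.46e-08 for Nrl to 0.0186 for Rcvrn, and Sag did not pass (FDR 0.822). Both PBS eyes of mouse 59710 entered as separate retinas, and without its right eye, an alternative added after the data were seen, 8 members still varied. At day 14, 6 members were higher than at day 2 (5 without that eye, when Cnga1 had a limma FDR of 0.118), beside 8.68% of all genes, and at day 35, 8 were, beside 15.4% of all genes. Lower genes were 54.8% and 53.2% of the calls at the 2 days, or 69.7% and 76.5% with library totals alone. Nrl rose most, from 975 ± 120 CPM at day 2 (n = 31) to 1245 ± 44.3 CPM at day 14 (n = 7 retinas of 6 mice) and 1397 ± 108 CPM at day 35 (n = 6). Its 6 retinas of day 35 all lay above every day 2 retina, and the log2 differences from day 2 were 0.36 (FDR 7.62e-05) and 0.52 (FDR 1.84e-07). The share of all genes with every day 35 retina above every day 2 retina was not counted.

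Pde6b went from 2032 ± 202 CPM at day 2 to 2329.6 ± 148 CPM at day 14 and 2674 ± 133 CPM at day 35, when 6 of 6 retinas also lay above every day 2 retina (log2 difference 0.40, limma FDR 7.36e-07). Gnat1 went from 8826 ± 927 to 10171 ± 845 and 10914 ± 898 CPM, with 4 of 6 retinas of day 35 above all of day 2 (0.31, FDR 0.000248). At day 35 the log2 differences were 0.34 for Nr2e3 (478 ± 75.0 CPM), 0.33 for Gngt1 (928 ± 115 CPM), 0.29 for Cnga1 (928 ± 45.2 CPM), 0.25 for Pde6a (3526 ± 318 CPM) and 0.23 for Rcvrn (773 ± 64.2 CPM), with FDRs of 7.15e-05 to 0.0180. Their day 35 and day 2 retinas overlapped. Sag stayed within its day 2 range at 4275 ± 346 CPM (0.06, 95% interval -0.10 to 0.23, FDR 0.608). Of the 36 other rod pathway genes, 21 were higher and 5 lower at day 14, and 27 higher and 2 lower at day 35. Over the same days the myeloid markers fell in 8 of 8 at both later days, from a sum of 50.6 to 202 CPM at day 2 to 34.5 to 55.0 at day 14 and 18.8 to 27.5 at day 35. Cone markers were higher in 4 and 7 of 11 at the later days, with a sum of 944 to 1351 CPM at day 2, 1312 to 1428 at day 14 and 1418 to 1540.4 at day 35. Higher levels were also seen for 4 and 7 of 9 RGC markers, 4 and 3 of 10 bipolar cell markers and 3 and 2 of 8 Mueller glia markers, of which 1 was lower at each day. The part of these shifts in the rod gene differences was not tested. Time since the injection and the age of the mice cannot be told apart in these retinas, and the fellow eyes had mostly been given TNF at the later days but any of the treatments at day 2.

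**Figure D4:**
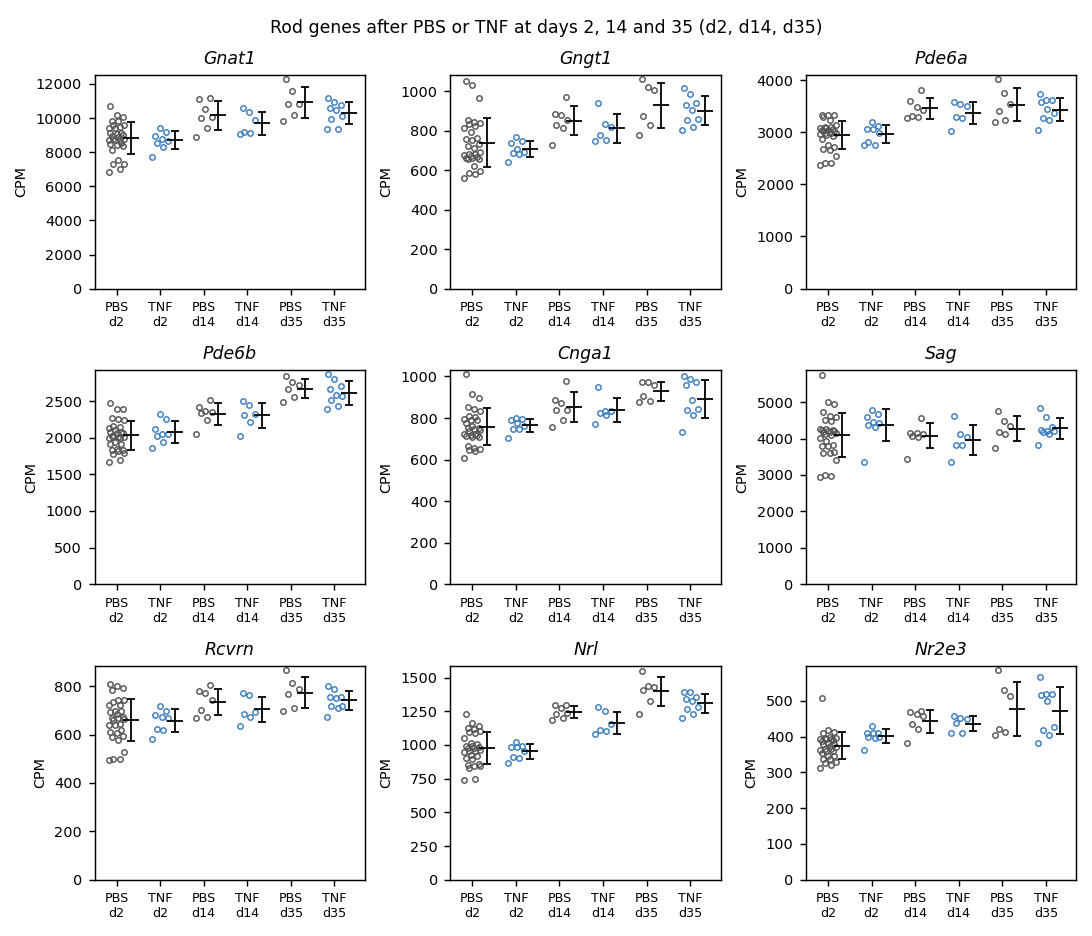
Levels of the 9 rod genes in CPM (vertical axis, from 0) in WT retinas of batch 1 after PBS or TNF at days 2, 14 and 35, with circles for retinas and a bar for the mean ± SD. PBS and TNF circles overlap at each day, and the Nrl circles climb from a PBS mean of 975 CPM at day 2 to 1397 CPM at day 35, while those of Sag stay level.

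Batch 2 gave the same comparison in other WT mice, fitted with the 23 retinas of that batch. After IL1A+TNF, 6 of 9 members were lower there (limma, FDR under 0.05), beside 7.55% of all genes, and lower genes were 36.1% of all calls or 22.4% with library totals alone. Gnat1 was at 9482, 10142, 10334, 10591 and 7971 CPM in the PBS retinas of mice 61720, 61721, 61722, 61927 and 62224, and at 4780, 6393 and 7642 CPM (lowest, median, highest) in the 6 IL1A+TNF retinas, without overlap (log2 fold change -0.62, SE 0.180, FDR 0.0190). Nrl was at 884, 1023, 1035, 1025 and 717 CPM after PBS and at 487, 531 and 705 CPM after IL1A+TNF, also without overlap (-0.75, SE 0.157, FDR 0.00206). Sag was at 4289, 3854, 3793, 4185 and 3570 CPM after PBS and at 3628, 4249 and 4677 CPM after IL1A+TNF, and its change was 0.10 (95% interval -0.15 to 0.34, FDR 0.564). In all, 4 of 9 members (Gnat1, Pde6a, Pde6b and Nrl) had every treated retina below every PBS retina, where 10.3% of all genes did. The PBS retina of mouse 62224 was the lowest of its group for all 9 genes.

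Of the other members in WT mice of batch 2, Pde6a (2054 to 2572 CPM after IL1A+TNF), Pde6b (1213 to 1613), Cnga1 (543 to 714) and Rcvrn (406 to 606) were lower, at log2 fold changes of -0.34, -0.49, -0.29 and -0.50 (limma FDRs 0.0181, 0.0210, 0.0308 and 0.0260). Gngt1 at -0.42 (373 to 613 CPM, FDR 0.117) and Nr2e3 at -0.17 (286 to 385 CPM, FDR 0.345) did not pass. Treated eyes were lower in 5 of 5 mice for 7 members and in 4 of 5 for Nr2e3, and Sag was higher in the treated eye of 5 of 5. Leaving out both eyes of mouse 61721 left 1 call (Nrl) and leaving out those of mouse 61722 left 3 (Gnat1, Pde6a and Nrl), whereas with mouse as a fixed factor, or with the 11 WT retinas fitted alone, Gngt1 passed as well, for 7 calls (FDR 0.0146 and 0.0139). Myeloid markers summed to 61.8 to 152 CPM after PBS and 626 to 1099 CPM after IL1A+TNF, and were higher in 8 of 8, and cone markers were lower in 7 of 11. Sums of bipolar cell markers (1468 to 1600.6 CPM after PBS, 801 to 1283 after IL1A+TNF) and of RGC markers (724 to 742 and 368 to 641 CPM) did not overlap. In limma, 1 of 10 and 0 of 9 of these genes were called lower. Their log2 fold changes were below 0 in 10 of 10 and 9 of 9, with medians of -0.58 and -0.37. The calls come from the fit shared with the Sarm1KO retinas, including those of mice 61924 and 61926. That fit called 1485 genes lower, and the 11 WT retinas alone gave 3424. Marker calls in the WT retinas alone are not given here, so the few calls do not show unchanged markers. The part of all these markers in the rod gene levels was not tested.

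In Sarm1KO mice, tested over all 81 day 2 retinas with a batch term, 6 of 9 members were lower after IL1A+TNF (limma, FDR under 0.05), beside 22.2% of all genes, and lower genes were 51.1% of all calls or 39.9% with library totals alone. Gnat1 ranged from 8608 to 11179 CPM after PBS (median 9320) and from 3812 to 9197 CPM after IL1A+TNF (median 6203), with a log2 fold change of -0.61 (SE 0.136, FDR 0.000177). Nrl went from 728, 903 and 1176 CPM to 409, 604 and 813 CPM (-0.63, SE 0.126, FDR 3.32e-05). For both genes the groups overlapped, through a treated retina of mouse 61561 that lay as high as PBS retinas, and 0 of 9 members were without overlap. Gngt1 (-0.57, FDR 0.00154), Pde6b (-0.49, FDR 0.000110), Rcvrn (-0.44, FDR 0.00416) and Pde6a (-0.21, FDR 0.0306) were also lower. Cnga1 at 725 to 905 CPM after PBS and 579 to 769 CPM after IL1A+TNF (-0.16, FDR 0.169), Sag at 3314 to 4444 and 2734 to 4581 CPM (-0.08, FDR 0.617) and Nr2e3 at 315 to 410 and 244 to 458 CPM (0.00, 95% interval -0.22 to 0.22, FDR 0.987) did not pass.

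These Sarm1KO calls depended on the model and on single mice. With mouse as a fixed factor over the 6 mice, 0 of 9 members and 0 of all genes were called, although 5 of 6 treated eyes were lower for Gnat1, Gngt1, Pde6a, Pde6b, Cnga1, Rcvrn and Nrl. Without the IL1A+TNF retinas of mice 61924 and 61926, an alternative added after the data were seen, 4 members were called, and Pde6a (FDR 0.0597) and Gngt1 (FDR 0.143) were not. Without both eyes of mouse 61765, the median log2 fold change of the 9 went from -0.44 to -0.26. In the Sarm1KO retinas IL1A+TNF also came with lower markers of RGCs in 9 of 9, bipolar cells in 10 of 10 and cones in 11 of 11, which became 9 of 9, 0 of 10 and 7 of 11 without the retinas of mice 61924 and 61926. Higher myeloid markers were seen in 7 of 8 with and without them (sum 74.0 to 182 CPM after PBS and 265 to 649 CPM after IL1A+TNF). Their part in the rod gene levels was not tested.

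**Figure D5:**
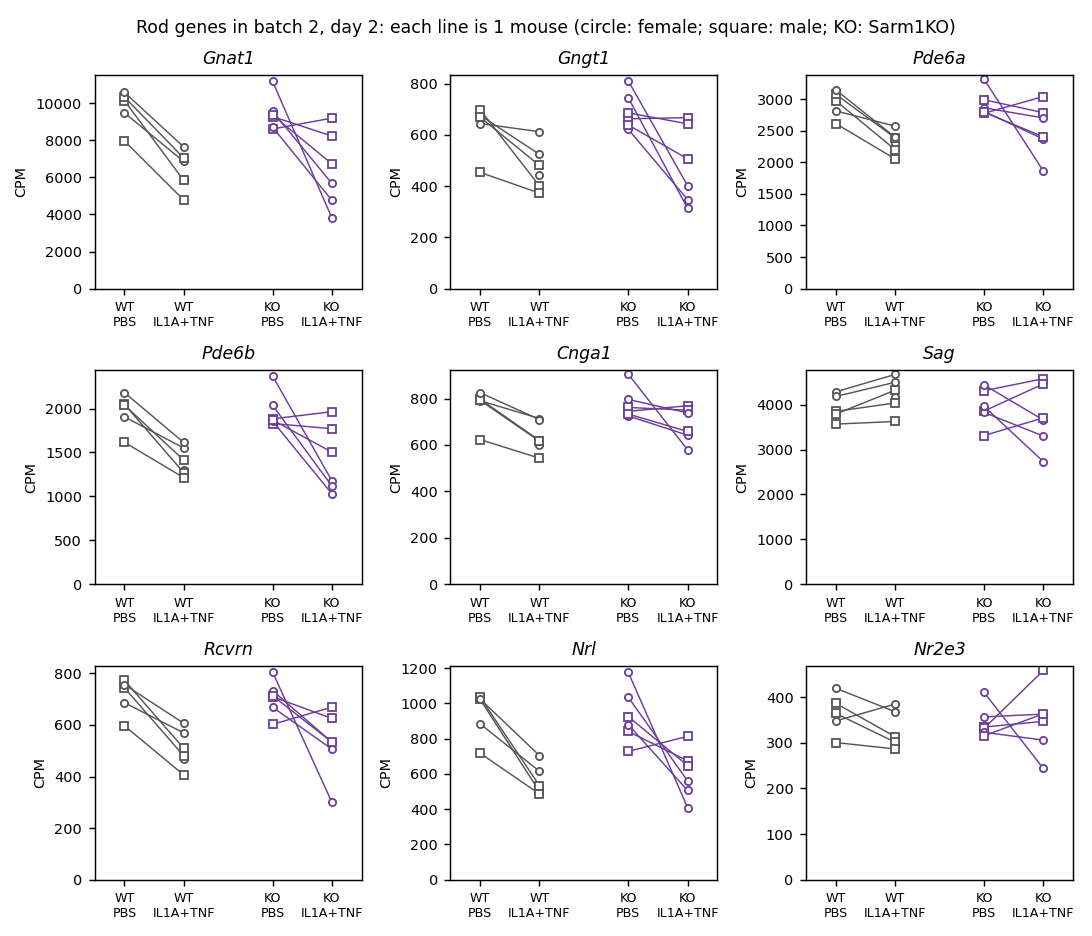
Levels of the 9 rod genes in CPM (vertical axis, from 0) in batch 2 at day 2, by genotype and treatment, where each line joins the eyes of 1 mouse, circles are females and squares are males. Lines fall in 5 of 5 WT and 5 of 6 Sarm1KO mice for Gnat1 and Nrl. For Sag they rise in 5 of 5 WT mice and fall in 3 of 6 Sarm1KO mice.

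Genotypes were compared under each treatment. After PBS, limma, edgeR and DESeq2 each called 0 of 9 members between Sarm1KO and WT, and 0 had an unadjusted limma p under 0.05, beside 0.0397% of all genes (8, while 984 had an unadjusted p under 0.05), and the log2 differences of -0.16 to 0.05 had 95% intervals that reached from -0.36 to 0.34. After IL1A+TNF, 0 of 9 were called in limma, edgeR or DESeq2, beside 14.8% of all genes (2988, or 184 without the IL1A+TNF retinas of mice 61924 and 61926), and Cnga1 (0.18) and Pde6a (0.15) had unadjusted limma p-values of 0.0437 and 0.0476 (FDR 0.166 and 0.175). The response to IL1A+TNF was then compared between genotypes by the interaction of genotype and treatment. It gave 0 calls among the 9 in limma, edgeR and DESeq2, beside 8.75% of all genes (1763, or 0 without those 2 retinas), with values of -0.04 to 0.33 on the log2 scale. Nr2e3 had the largest, at 0.33 (SE 0.124, 95% interval 0.08 to 0.58, unadjusted limma p 0.00991, FDR 0.0827), and without the 2 retinas its value was 0.33 (FDR 0.324). The WT side of this fit held both batches, while Sarm1KO retinas were in batch 2 only. The WT log2 fold change of Nr2e3 after IL1A+TNF was -0.38 in batch 1 and -0.17 in batch 2, so batch enters this value. For Gnat1 the interval ran from -0.18 to 0.43 and for Nrl from -0.10 to 0.47 (positive where the fall was smaller in Sarm1KO).

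The members also varied together between retinas of the same group. After group means were removed, Pearson correlations of log2 CPM over all retinas were highest between Gnat1 and Rcvrn (0.91), and Sag and Rcvrn had the lowest (0.29). The median correlation with the other 8 members was 0.84 for Gnat1, 0.58 for Nr2e3 and 0.49 for Sag. The genes whose residual pattern was most like the mean of the 9, among genes of at least 1 CPM on average outside the lists, were Ccdc126 (0.90), Pla2g7 (0.90), Osbp2 (0.89), Ap2a2 (0.89), Lbhd1 (0.89) and Vtn (0.89). All 6 were lower after IL1A+TNF in batch 1, by log2 fold changes of -0.26 to -0.54 (limma FDRs 9.18e-11 to 5.37e-05). These correlations are descriptions, since the points share libraries, mice and the composition of each dissected retina.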

How the data were processed

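RNA of 109 mouse retinas from 64 mice was measured, and treatment, day, genotype, sex, eye and batch were taken from the labels. Alignment to mm10 by the authors used STAR 2.7.9a, reads were summed by gene in featureCounts (Subread 2.0.1), and the deposited values are whole-number counts per gene for 37315 genes. The annotation release and the strand setting are not given in the sources used here, so reads of overlapping genes cannot be assigned with certainty. Symbols and positions were matched by Ensembl identifier to GENCODE M21 (35533 of 37315 identifiers), and 5937 genes were at 0 in every retina.

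From the counts, models were fitted with limma 3.58.1 and statmod 1.5.0 under R 4.3.3, and alternatives with DESeq2 1.42.0 and edgeR 4.0.16. The low-count filter was filterByExpr (minimum count 10, minimum total 15, proportion 0.7, large groups from 10). Counts were scaled by TMM, and voom with duplicateCorrelation (mouse as block, 2 rounds) preceded limma's moderated test with Benjamini-Hochberg adjustment over all genes tested, called at an FDR under 0.05. The day 2 fit of batch 1 had 58 retinas and 19548 genes, days 14 and 35 had 13 and 15 retinas, batch 2 had 23 retinas and 19668 genes, and the Sarm1KO fit had 81 retinas and 20154 genes with a batch term. PBS retinas of the 3 days (44) were fitted without a block. Treatment or group and sex were terms in each fit. CPM are relative to 1000000 counts after TMM scaling, and log2 CPM carry a prior count of 2.

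Replicates are retinas of separate mice, except that mouse 59710 gave both PBS eyes at day 14 (7 retinas of 6 mice), and other mice with both eyes pair treatments. Over the 45 mice with both eyes the correlation of the eyes' deviations from group means had a median of 0.0827 (-0.265 to 0.339) and exceeded 0.1 in 19. No pair of retinas had identical counts, and the highest correlation between retinas was 0.994.

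The 9 members, the lists and the tests were chosen with earlier results of these data known. All 9 are named. Of 36 other rod pathway genes, 5 of the 6 with the smallest FDR after IL1A+TNF are named and the other is not reported here, and of each list of other cells up to 2. The 6 genes of most similar residual pattern are named among genes of at least 1 CPM outside the lists. The lists come from general knowledge of the retina. Models were tested on simulated data first. Alternatives were other scalings, filters, models and tools, mouse as a fixed factor, and leaving out retinas or mice. A table of sample annotations by the authors was not used.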

Additional observations from a re-analysis of the deposited data

Results flagged for a closer look

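A retina far from the rest of its group was sought in the 9 genes by the gap to its nearest neighbour as a share of the group's range (Dixon's ratio), in groups of 4 to 10 retinas. It was found in 8 of 99 sets, and the outlying retina was the lowest one each time. Chance gives about 1 in 20, but the sets are not independent, since the 9 genes share retinas and vary together. Mice 60637 and 62224 were each flagged for more than 1 gene.

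Mouse 60637 was far below the other IL1A retinas for Gnat1 (ratio 0.586, 4450 CPM beside 6572 in the nearest), Pde6a (0.524, 1934.5 beside 2419 CPM) and Rcvrn (0.539, 355 beside 524 CPM). This is the mouse without which 2 rather than 7 members were called after IL1A.

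The PBS retina of WT mouse 62224 in batch 2 lay apart for Cnga1 (0.848, 623 beside 791 CPM) and Gngt1 (0.812, 454 beside 644 CPM). For Sag, the TNF retina of mouse 60213 at day 2 (0.718, 3370 beside 4330 CPM) and the PBS retina of mouse 59708 at day 14 (0.572, 3437 beside 4048 CPM) lay apart. In Sarm1KO mice given IL1A+TNF, mouse 61765 lay apart for Rcvrn (0.652, 300.1 beside 506 CPM).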

How the results depend on the processing

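After IL1A+TNF at day 2 the 8 member calls held under every alternative run (other scalings and filters, edgeR, DESeq2, no sex term, with and without a replicate block, and each IL1A+TNF mouse left out), with Gnat1 at -0.85 to -0.65, Nrl at -0.92 to -0.73 and Sag at -0.12 to -0.01 on the log2 scale. After IL1A, leaving out single mice with both eyes gave 2 to 7 members and 1086 to 2127 lower genes. In WT mice of batch 2, it gave 1 to 6 members and 951 to 1187 lower genes. In Sarm1KO mice, the median of the 9 was -0.58 to -0.26. For TNF at day 2, it gave 10 to 453 genes. The causes of these shifts were not tested. Over all alternatives, a member's log2 fold change kept its direction and side of the threshold in 1249 cases, lost the call in 57, gained it in 2 and turned sign in 51, none of them called.

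Mouse as a fixed factor (the replicate block over mice with both eyes, with fewer mice) gave 3129 lower genes after IL1A+TNF, 248 after IL1A with 1 member, 0 genes for TNF at day 2, 8 for TNF at day 35, 2510 lower in WT mice of batch 2, and 0 genes and 0 members in Sarm1KO mice. With library totals alone, 1111 genes were lower after IL1A and 2342 lower for IL1A+TNF against TNF, and in PBS retinas of day 35 the means of Pde6b and Cnga1 were 2529 and 878 CPM. TNF at day 2 gave 242 genes in edgeR and 268 in DESeq2, Sarm1KO against WT after IL1A+TNF gave 1195 and 1595, and the interaction gave 181 and 430. The 11 WT retinas of batch 2 alone gave 3424 lower genes. Batch 2 alone gave 2832 lower genes in Sarm1KO mice, 2 for genotype after PBS, 129 for genotype after IL1A+TNF and 0 for the interaction. Without the IL1A+TNF retinas of Sarm1KO mice 61924 and 61926, an alternative chosen after seeing the data, these were 1384 lower genes in Sarm1KO mice, 184 for genotype after IL1A+TNF and 0 for the interaction. The PBS F test of Rcvrn rose to an FDR of 0.0695 with library totals alone.

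Uncalled log2 fold changes that turned sign were the following. With library totals alone, Sag was at 0.015 after IL1A, 0.0055 for TNF at day 14, and -0.028 and -0.0018 for PBS at days 14 and 35, and Cnga1 at 0.011 for TNF at day 14. Sag for PBS at day 14 was -0.0077 in edgeR and -0.025 without the right eye of mouse 59710. With RLE factors, Nr2e3 in Sarm1KO mice was -0.0035. With no low-count filter, Cnga1 for TNF at day 14 was 0.00079, Nr2e3 in Sarm1KO mice -0.011, the genotype difference after PBS 0.0090 for Pde6a, 0.0091 for Pde6b and 0.0089 for Cnga1, and the interaction of Gngt1 -0.0092. With no replicate block, Rcvrn for TNF at day 2 was 0.0026 and Cnga1 for TNF at day 14 0.00083. With no sex term, Pde6b for TNF at day 14 was -0.0077 and Sag for TNF at day 35 -0.0039.

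With mouse as a fixed factor (replicate block), Sag was at 0.048 after IL1A and -0.018 for TNF at day 35, Pde6a, Pde6b and Cnga1 at -0.022, -0.032 and -0.070 for TNF at day 2, Pde6b at -0.0048 for TNF at day 14, and Nr2e3 at -0.018 in Sarm1KO mice. Batch 2 alone gave -0.0010 for Nr2e3 in Sarm1KO mice, genotype differences after PBS of 0.0024, 0.020, 0.019 and 0.0049 for Pde6a, Pde6b, Cnga1 and Sag, -0.022 for Gnat1 between genotypes after IL1A+TNF, and interactions of -0.0055 for Pde6b and -0.16 for Gngt1. Without the IL1A+TNF retinas of mice 61924 and 61926, Sag was at 0.061 in Sarm1KO mice, 0.031 between genotypes after IL1A+TNF and 0.11 for the interaction, and Nr2e3 at -0.0069 in Sarm1KO mice. Leaving out single mice moved Sag after IL1A between -0.053 and 0.0059, Nr2e3 in Sarm1KO mice between -0.11 and 0.14, Nrl and Gngt1 between genotypes after PBS from -0.13 to 0.0098 and -0.0012 to 0.074, and, for TNF at day 2, Pde6a from -0.015 to 0.023, Cnga1 from -0.0039 to 0.020 and Rcvrn from -0.023 to 0.011. RLE and DESeq2 were not run for the PBS retinas across days. Every member had a count of at least 8290 in every retina.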

Other observations

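Seen after the data were examined and not tested, the 3 female Sarm1KO retinas given IL1A+TNF lay below the 3 male ones for Gnat1, Pde6b and Nrl. The other members are not listed here, and the share of all genes parted in this way was not counted. Gnat1 was at 3812, 5673 and 4764 CPM in females 61765, 61924 and 61926, and at 9197, 8231 and 6733 CPM in the males. Pde6b was at 1177, 1118 and 1029 CPM in those females and at 1963, 1770 and 1503 CPM in the males. Nrl was at 409, 560.5 and 506 CPM in those females and at 813, 674 and 648 CPM in the males. Females 61924 and 61926 are the retinas that stood apart in neuronal markers, and the sexes overlapped in the WT retinas of the same batch.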
